A study of Mus musculus with 96 samples.

Results

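Reactive astrocytes, the injury-responsive state of the main glial support cell of the brain, release proteins and display receptors that resting astrocytes make at low levels. The genes described here are 10 such genes, chosen by name as reactive astrocyte genes for secreted, surface and associated proteins. They are Lcn2, Serpina3n, Osmr, Steap4, S1pr3, Cd44, Hspb1, Aspg, Emp1 and Cd109, and all 10 were found by symbol among the 32594 genes listed in both count tables. Their levels were followed in the ipsilateral hippocampus, thalamus and hypothalamus of male C57BL/6 mice aged 8 to 10 weeks, by bulk mRNA sequencing of 96 libraries at 3 and 29 days post-injury (dpi).

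At each time point and in each region there were 4 arms of 4 libraries. The TBI arms received a controlled cortical impact, a traumatic brain injury delivered by a piston to the left cortex. The Sham arms received anaesthesia and scalp surgery without craniectomy, so opening of the skull differs between Sham and TBI as well as the impact. Candesartan (CD), a blocker of the type 1 angiotensin II receptor, was given at 0.1 mg/kg per day from 6 h, and vehicle (VH) was given on the same schedule. The 3 dpi cohort was injected again at 24 and 48 h, whereas the 29 dpi cohort carried an osmotic pump placed at 24 h, so route and time point changed together. All groups were saline-perfused animals, and the 4 RNA samples of best quality were sequenced in each group. The labels do not say which libraries of different regions came from 1 mouse, and p-values measure only the spread between libraries of a group. Total counts were 17150610 to 31253784 per library at 3 dpi and 6663629 to 38589791 at 29 dpi, so that low values such as those of Lcn2 and Steap4 in Sham libraries rest on few counts.

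As background, injury and cytokines of the interleukin 6 family drive astrocytes into the reactive state. These cytokines bind receptors that share the gp130 subunit, Il6st, and pass the signal through Jak kinases to Stat3, a transcription factor whose targets include its own inhibitor Socs3. Oncostatin M receptor, encoded by Osmr, is a gp130 partner. Published gene sets separate pan-reactive astrocyte genes, A1 genes linked to endotoxin and A2 genes linked to ischaemia. Of the genes described here, Emp1 and Cd109 belong to the A2 set and the others to the pan-reactive set. In bulk tissue a change in the number of cells of a type cannot be told apart from a change in RNA per cell.

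Promoter sequences were available from RefSeq on GRCm38.p6 for 9 of the 10 genes, as 10 windows of 250 bases before to 50 bases after the start site. Each was searched on both strands for 5 motifs. TTCNNNGAA is the STAT core, TGANTCA the AP-1 core, GAANNTTC a heat shock element pair, TTNNGNAA a short C/EBP form and TATAAA the TATA box. The STAT letters were found in 2 of the 10 windows and in 8.3% of the 32851 promoters of the table, and the AP-1 letters in 2 windows and in 7.81% of all. The heat shock letters were in 1 window and in 7.86% of all, the C/EBP letters in 5 and in 40.7%, and the TATA letters in 1 and in 13.6%. The 4 windows below are shown because they hold the STAT, AP-1 and heat shock matches. Emp1 had 2 windows, and the one not shown, chr6:135367243-135367542, held no match to any of the 5 motifs. Capitals mark every match except C/EBP. A match is a description of letters, not a binding site.
Emp1: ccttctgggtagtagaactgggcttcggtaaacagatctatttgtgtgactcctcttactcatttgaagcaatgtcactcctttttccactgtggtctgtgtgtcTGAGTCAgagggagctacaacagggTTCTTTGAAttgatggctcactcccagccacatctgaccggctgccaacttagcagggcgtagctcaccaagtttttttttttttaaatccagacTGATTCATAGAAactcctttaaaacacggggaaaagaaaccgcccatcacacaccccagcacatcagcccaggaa
Steap4: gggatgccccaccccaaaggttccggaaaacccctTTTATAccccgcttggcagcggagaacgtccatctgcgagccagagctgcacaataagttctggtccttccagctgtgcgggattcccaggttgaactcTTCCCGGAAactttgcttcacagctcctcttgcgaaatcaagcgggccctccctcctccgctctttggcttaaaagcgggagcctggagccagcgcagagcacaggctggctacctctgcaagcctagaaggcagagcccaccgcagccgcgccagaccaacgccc
Osmr: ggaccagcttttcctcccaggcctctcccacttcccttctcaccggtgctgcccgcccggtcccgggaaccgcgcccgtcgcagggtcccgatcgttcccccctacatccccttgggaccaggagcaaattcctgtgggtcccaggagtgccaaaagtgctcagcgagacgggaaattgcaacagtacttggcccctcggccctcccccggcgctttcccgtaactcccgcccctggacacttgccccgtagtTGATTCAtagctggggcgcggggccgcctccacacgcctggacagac
Hspb1: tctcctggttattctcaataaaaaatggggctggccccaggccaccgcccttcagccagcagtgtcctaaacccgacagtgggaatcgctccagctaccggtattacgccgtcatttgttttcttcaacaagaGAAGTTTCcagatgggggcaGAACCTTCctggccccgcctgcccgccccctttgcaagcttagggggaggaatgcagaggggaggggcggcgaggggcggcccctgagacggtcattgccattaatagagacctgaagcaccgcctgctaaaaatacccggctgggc

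The Emp1 window lies at chr6:135362681-135362980 on the plus strand. It holds 2 STAT matches, whose first bases are 120 and 22 bases before the start site, and 2 AP-1 matches, at 145 and 25 bases before it, and the STAT and AP-1 matches nearest the start overlap. The Steap4 window, chr5:7960222-7960521 on the plus strand, holds 1 STAT match 116 bases before the start and a TATA match on the opposite strand 215 bases before it. The Osmr window, chr15:6874264-6874563 on the minus strand, holds 1 AP-1 match just downstream of the start. The Hspb1 window, chr5:135887669-135887968 on the plus strand, holds heat shock matches 117 and 97 bases before the start. In GRCm38 all 10 genes are annotated as protein coding, and their loci are given where each gene is described.

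At 3 dpi in the hippocampus, 8 of the 10 genes were higher in TBI + VH than in Sham + VH, from Lcn2, 62.5-fold higher, to Cd109, 1.87-fold higher. Steap4 and Hspb1 did not pass the test, and no gene of the 10 was called lower. A gene was called a differentially expressed gene (DEG) where the adjusted p was under 0.05 and the log2 fold change was beyond 0.32 in size, by the edgeR quasi-likelihood test with Benjamini-Hochberg adjustment over all genes tested. Of 16756 genes tested, 1507 were called higher, 8.99%, and the median log2 fold change was 2.26 over the 10 genes and -0.01 over all genes. Values below are CPM, the counts of a gene relative to the TMM-scaled total of its library, in replicates 1 to 4 of a group in that order.

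**Figure D1:**
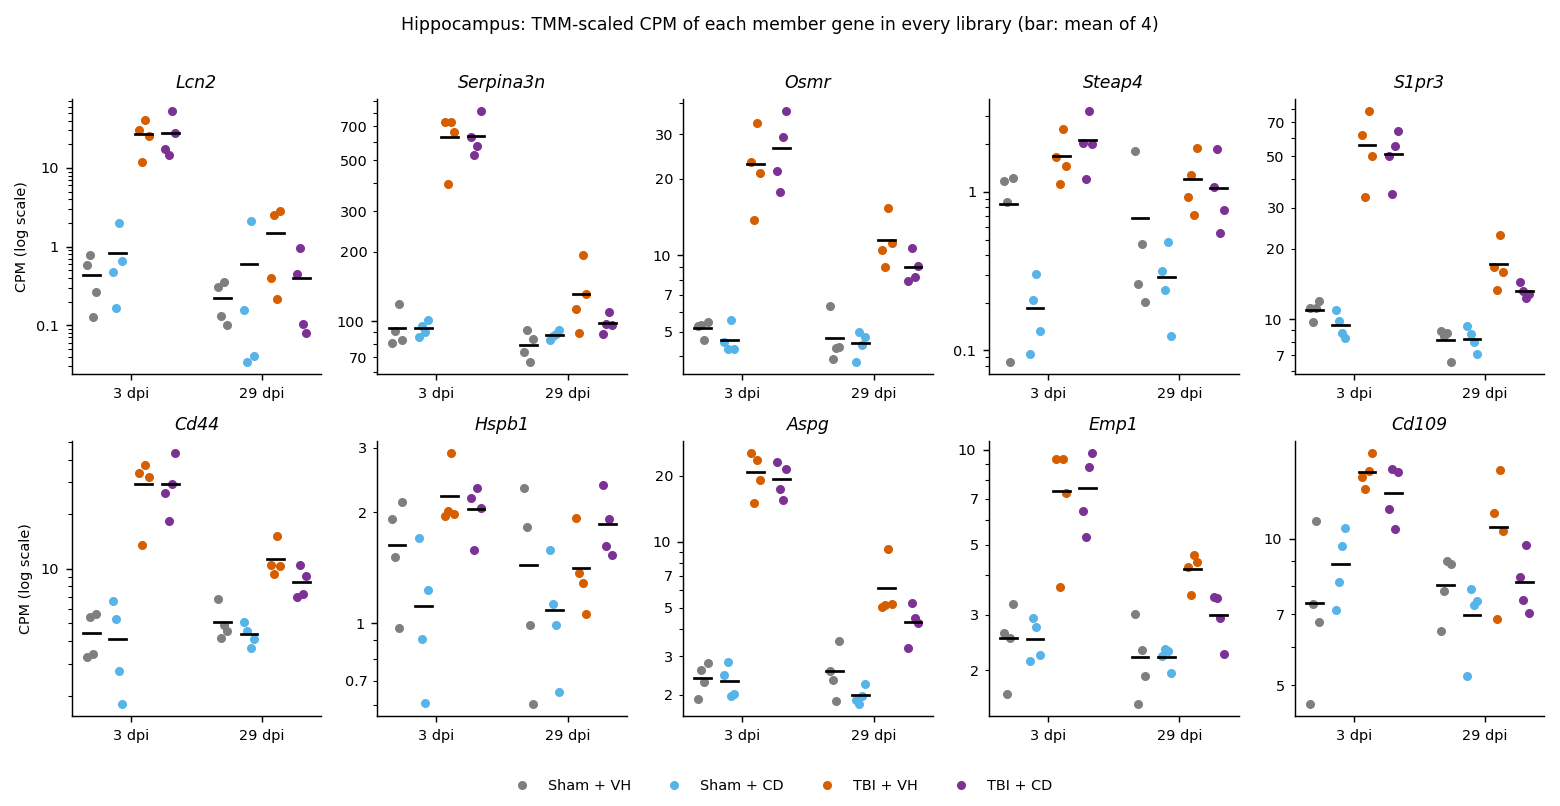
CPM of each of the 10 genes in all 32 hippocampal libraries, on log scales, with points for libraries, bars for the mean of 4 and colours for the 4 arms. At 3 dpi the TBI and Sham arms are apart for Lcn2, Serpina3n, Osmr, S1pr3, Cd44, Aspg and Emp1 in both drug arms, and at 29 dpi the gaps are smaller.

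Among the secreted products, Lcn2 (chromosome 2, 32384633 to 32388252, minus strand) encodes lipocalin 2, an acute-phase protein that binds iron-carrying siderophores. Its level was 0.583, 0.777, 0.127 and 0.267 CPM in Sham + VH and 30.3, 12.1, 40.2 and 25.7 CPM in TBI + VH. Every TBI + VH library was above every Sham + VH library by more than an order of magnitude. The log2 fold change was 5.97 ± 0.62 (SE, n = 4 per group; edgeR adjusted p = 3.48e-06). Serpina3n (chromosome 12, 104406729 to 104414329, plus strand) encodes a secreted serine protease inhibitor. It stood at 80.2, 91.1, 118.5 and 82.9 CPM in Sham + VH and at 735.3, 394.9, 735.5 and 663 CPM in TBI + VH, again without overlap. The log2 fold change was 2.77 ± 0.19 (edgeR adjusted p = 1.33e-07). Serpina3n sits in a cluster of near-identical serpin genes, and how reads shared between copies were counted is not given in the sources used here. Per kilobase of merged exons, Serpina3n was the most abundant of the 10 in Sham + VH, at 45.2 ± 8.47 CPM per kb (SD, n = 4), and Lcn2 the least, at 0.167 ± 0.113 CPM per kb.

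Among the receptors and surface proteins, Osmr (chromosome 15, 6813577 to 6874969, minus strand) had 5.25, 5.31, 4.65 and 5.46 CPM in Sham + VH and 23.4, 13.8, 33.2 and 21.0 CPM in TBI + VH. The groups did not overlap, and the log2 fold change was 2.16 ± 0.25 (edgeR adjusted p = 9.94e-06). S1pr3 (chromosome 13, 51408639 to 51422797, plus strand) encodes a receptor for sphingosine 1-phosphate. It had 11.2, 9.71, 11.1 and 11.99 CPM in Sham + VH and 61.4, 33.5, 77.9 and 50.2 CPM in TBI + VH. The Sham + VH libraries lay close together while the TBI + VH libraries spread more widely above them, and the log2 fold change was 2.36 ± 0.22 (edgeR adjusted p = 1.29e-06). Cd44 (chromosome 2, 102811141 to 102901665, minus strand) encodes the surface receptor for hyaluronan. It had 3.25, 5.44, 3.38 and 5.65 CPM in Sham + VH and 33.9, 13.5, 37.4 and 32.01 CPM in TBI + VH, and the difference on the log2 scale was 2.73 ± 0.37 (edgeR adjusted p = 5.22e-05). Replicate 2 was the lowest of the TBI + VH libraries in 9 of the 10 genes, all but Hspb1.

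Emp1 (chromosome 6, 135362545 to 135383173, plus strand), a tetraspan epithelial membrane protein, had 2.62, 1.68, 2.53 and 3.25 CPM in Sham + VH and 9.36, 3.67, 9.35 and 7.28 CPM in TBI + VH. The groups did not overlap, with replicate 2 of TBI + VH only just above the highest Sham + VH library. The log2 fold change was 1.57 ± 0.28 (edgeR adjusted p = 0.000649). Cd109 (chromosome 9, 78615546 to 78716253, plus strand), a membrane-anchored protein of the alpha-2-macroglobulin family, had 4.58, 7.34, 10.9 and 6.76 CPM in Sham + VH and 13.4, 12.7, 13.8 and 15.0 CPM in TBI + VH. It too was higher in every TBI + VH library, by 0.90 ± 0.19 on the log2 scale (edgeR adjusted p = 0.00294).

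Steap4 (chromosome 5, 7960457 to 7982213, plus strand) encodes a membrane metalloreductase that reduces iron and copper. It was scarce, with 1.17, 0.864, 0.0845 and 1.22 CPM in Sham + VH and 1.66, 1.12, 2.49 and 1.45 CPM in TBI + VH. The groups overlapped, since replicate 2 of TBI + VH lay below 2 of the Sham + VH libraries, and the log2 fold change of 1.02 ± 0.45 did not pass (edgeR adjusted p = 0.158). Of the 4 Sham + VH libraries, replicate 3 stood apart in Steap4 and also in the summed level of 9 choroid plexus epithelium markers, which was 206.6 CPM there and 6891, 4419 and 4744 CPM in replicates 1, 2 and 4. In TBI + VH that sum was 22.8 to 174.3 CPM, and all 9 markers were called lower, among them the most abundant, Ttr. With a score of these markers as a covariate, the calls of Cd109 (log2 fold change 0.59, edgeR adjusted p = 0.238) and Emp1 (1.31, adjusted p = 0.0893) were lost and the other 6 were kept. The marker sums of Sham + VH and TBI + VH did not overlap, so the covariate and injury changed together in this comparison. The part of choroid plexus tissue in the lost calls was not tested. Steap4, at 1.45 (adjusted p = 0.32), was not called in either fit.

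The intracellular products differed from each other. Aspg (chromosome 12, 112106679 to 112127559, plus strand) encodes an asparaginase. It had 1.92, 2.59, 2.28 and 2.79 CPM in Sham + VH and 25.3, 15.0, 23.7 and 19.1 CPM in TBI + VH. The log2 difference was 3.12 ± 0.19, with the smallest adjusted p of the 10 genes (2.7e-08, edgeR). Hspb1 (chromosome 5, 135887919 to 135889563, plus strand) encodes a small heat shock protein. It had 1.92, 1.51, 0.972 and 2.14 CPM in Sham + VH and 1.96, 2.02, 2.89 and 1.98 CPM in TBI + VH. The groups overlapped and the log2 fold change of 0.45 ± 0.27 did not pass (edgeR adjusted p = 0.323).

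The related gene lists in the same comparison are given next as counts of genes called, with lists and genes chosen with earlier results of these data known. All 5 other pan-reactive genes tested were higher, with log2 fold changes of 6.37 for Timp1, a metalloproteinase inhibitor, 3.85 for Vim and 3.62 for Gfap, intermediate filament proteins, and 2.67 for Cxcl10, a chemokine. The smallest was 0.56 for Cp. Gfap alone went from a mean of 344.8 to 4226 CPM. Of the A1 list 7 of 11 were higher, led by Ggta1 at 2.38 and Gbp2 at 1.84, and of the other A2 genes 6 of 9, led by the transglutaminase Tgm1 at 9.10 and the cytokine Clcf1 at 3.07. The medians were 3.62, 0.96 and 1.37 for these 3 lists.

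Among cytokines that signal through gp130, the subunit that Osmr pairs with, 3 of 6 tested were higher, namely Clcf1 at 3.07, Lif at 1.72 and Cntf at 1.53, and 2 of 5 other receptor genes, Il6ra at 0.61 and the shared subunit Il6st at 0.36. Lifr, another partner of gp130, did not pass at 0.10 (edgeR adjusted p = 0.539). Of 12 genes of the Stat3 pathway 4 were higher: Bcl3 at 3.74, Socs3 at 3.09, Cebpd at 1.24 and Stat3 at 1.03. None of the gp130 and Stat3 genes tested was called lower. The medians of the cytokine, receptor and Stat3 lists were 0.68, 0.10 and 0.31.

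Around S1pr3, 2 of 10 genes of the sphingosine 1-phosphate pathway were higher, the receptor S1pr2 at 0.80 and the lyase Sgpl1 at 0.73, and the median was 0.05. Around Cd44, 3 of 8 ligand and hyaluronan genes were higher, the ligand Spp1 (osteopontin) at 3.98, Hmmr at 2.86 and Lgals9 at 1.77. The 3 partners of Lcn2 tested, its receptors Slc22a17 and Lrp2 and its complex partner Mmp9, gave none called, with log2 fold changes from -0.23 to -0.06. Among relatives of the 10 genes, only those called are named here. Emp3 (2.02), Pmp22 (0.97), Hspb6 (2.33), Hspb8 (0.71), Cryab (0.40), A2m (2.59), Serpina3i (2.90) and Serpina3h (0.90) were higher. Serpina3i and Serpina3h had means of 1.95 and 1.22 CPM in TBI + VH, beside 632 CPM for Serpina3n. How reads shared between these copies were counted is not given. The Steap family was divided, with Steap3 higher at 0.98 and Steap1 and Steap2 lower at -3.99 and -1.37. Steap1, Steap2, A2m and Cryab were lower in Sham + CD than in Sham + VH, at -4.78, -1.43, -1.98 and -0.40, a comparison in which 8 of 9 choroid plexus markers were lower, and the part of choroid plexus tissue in these values was not tested.

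Cell type markers moved in the same libraries. Astrocyte markers, 10 genes summing to 5298 to 6052 CPM in Sham + VH and 6712 to 6968 CPM in TBI + VH, gave 7 called higher, and their median log2 fold change was 0.49. Microglia markers summed to 302 to 325 CPM in Sham + VH and 598 to 856 CPM in TBI + VH, with 7 of 7 higher. Markers of blood monocytes and macrophages summed to 4.79 to 8.36 CPM in Sham + VH and 9.2 to 16.9 CPM in TBI + VH, with 3 of 7 tested higher. Of 9 neutrophil markers listed, 8 were in the tables and 1 passed the filter on low counts, and the sum of the 8 was 0.649 to 1.08 CPM in Sham + VH and 0.610 to 1.82 CPM in TBI + VH. Lcn2 is also a neutrophil granule gene. Neuron markers summed to 10230 to 10820 CPM in Sham + VH and 8520 to 10410 CPM in TBI + VH, with 0 of 7 called. The part of these cell types in the rise of the 10 genes was not tested.

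With candesartan the injured hippocampus at 3 dpi again had higher levels of most of the 10 genes than Sham + VH. Against Sham + VH, 9 of the 10 genes were higher in TBI + CD, with a median log2 fold change of 2.29 (all genes -0.02), while 10.3% of genes tested were called higher. These 2 comparisons share the Sham + VH libraries. Lcn2 had 17.7, 14.5, 52.6 and 27.9 CPM in TBI + CD, Serpina3n 632.7, 528.8, 577.8 and 814.9 CPM and S1pr3 50.1, 34.5, 55.1 and 64.2 CPM, ranges that overlapped those of TBI + VH. Their log2 fold changes against Sham + VH were 6.02 ± 0.62, 2.78 ± 0.19 and 2.21 ± 0.22. Steap4, with 2.05, 1.21, 3.23 and 2.01 CPM, was the gene added, at 1.35 ± 0.44 (edgeR adjusted p = 0.0438). Its call was lost in 9 of 15 alternatives, among them the choroid plexus covariate (adjusted p = 0.099), the replicate block and the removal of single libraries, while Hspb1 was not called (0.32 ± 0.27). That covariate also ended the call of Cd109 (0.51, adjusted p = 0.169).

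The direct comparison of TBI + CD with TBI + VH at 3 dpi gave 0 DEGs in the hippocampus by edgeR, 0 by DESeq2 and 732 genes of 16756 at an unadjusted p under 0.05, none of them among the 10. The share called was 0%. The 10 log2 differences lay between -0.15 for Cd109 and 0.33 for Steap4, with a median of 0.00, and the intervals allow, for example, -0.37 to 0.38 for Serpina3n and -0.78 to 0.88 for Lcn2 (95%). A p that misses the threshold does not show that the arms are alike. The difference of the injury response between drug arms, tested as an interaction, gave 0% called and none of the 10 by edgeR, while 1 of the 10 (Steap4, 2.48 ± 0.74) and 2196 of all genes were at an unadjusted p under 0.05.

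In uninjured mice at 3 dpi, candesartan was accompanied by 251 DEGs in the hippocampus, 1.50% of genes tested and 237 of them lower, but none was among the 10 by edgeR. Steap4 was the nearest, with 0.0947, 0.207, 0.305 and 0.132 CPM in Sham + CD against the Sham + VH values above, a log2 difference of -2.15 ± 0.61 (edgeR adjusted p = 0.0883, unadjusted p = 0.00264). DESeq2 called Steap4 in this comparison and in the interaction, where it called 2.41% and 1.73% of all genes, and so did edgeR without replicate 3 of Sham + VH. The choroid plexus sum was 62.2 to 118 CPM in Sham + CD, so all 4 Sham + CD libraries and the 1 Sham + VH library low in choroid plexus markers were also the 5 Sham libraries lowest in Steap4. With Sham + CD as the control for TBI + CD, 9 of the 10 genes and 14.4% of all genes were higher, now with Hspb1 at 0.86 (edgeR adjusted p = 0.025) and without Cd109 (adjusted p = 0.0625), and Steap4 reached 3.50 (adjusted p = 0.000159).

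**Figure D2:**
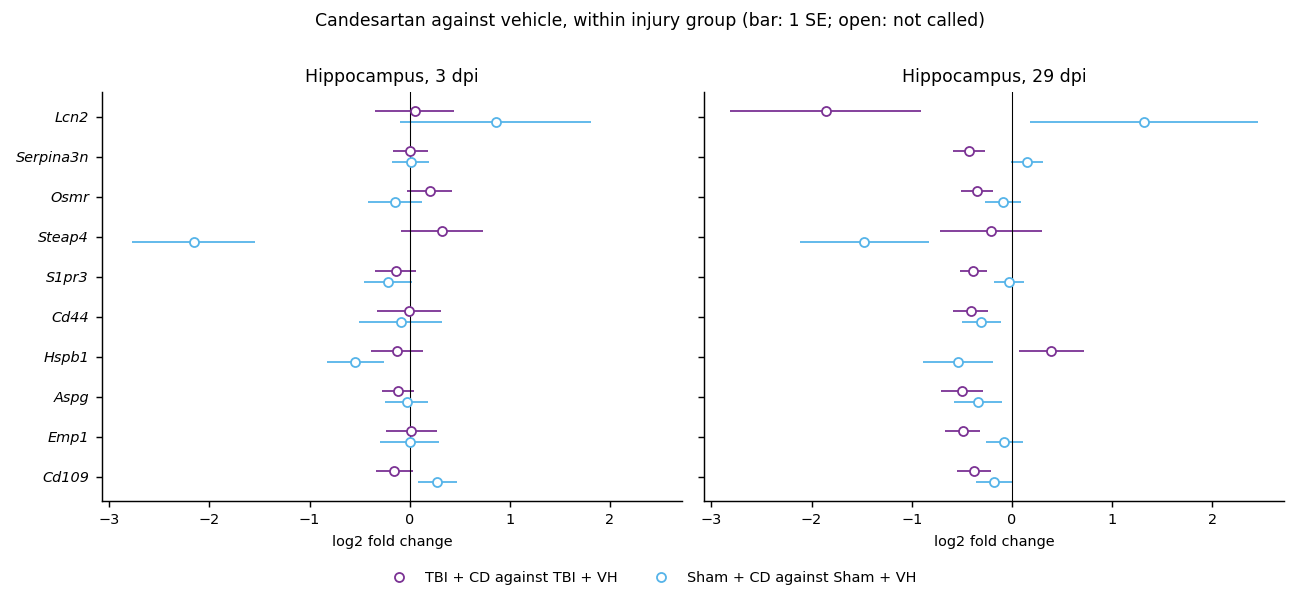
Log2 fold changes of candesartan against vehicle in the hippocampus, for injured (TBI + CD against TBI + VH) and uninjured (Sham + CD against Sham + VH) mice at 3 and 29 dpi. Points are estimates of the edgeR fit, bars are 1 SE, and all points are open because none was called. At 3 dpi the injured comparison lies between -0.15 and 0.33, and at 29 dpi 9 of the 10 estimates in injured mice are below 0.

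By 29 dpi the injury difference in the hippocampus was smaller and 5 of the 10 genes remained called. In TBI + VH against Sham + VH, 0.523% of 16832 genes tested were called higher, and the called genes were Osmr, S1pr3, Cd44, Aspg and Emp1. The median log2 fold change was 0.95 over the 10 genes and -0.01 over all genes. Osmr had 6.33, 3.91, 4.29 and 4.34 CPM in Sham + VH and 10.45, 8.96, 15.3 and 11.2 CPM in TBI + VH. Both groups were apart, with a log2 fold change of 1.24 ± 0.17 (edgeR adjusted p = 0.00107). S1pr3 went from 8.89, 8.46, 8.75 and 6.56 CPM to 16.7, 13.3, 22.97 and 15.9 CPM, a log2 fold change of 1.05 ± 0.14 (adjusted p = 0.00107). Cd44 went from 6.81, 4.17, 4.90 and 4.54 CPM to 10.45, 9.41, 15.1 and 10.4 CPM, at 1.10 ± 0.18 (adjusted p = 0.00539).

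Aspg had 2.57, 2.34, 1.87 and 3.53 CPM in Sham + VH and 5.05, 5.12, 9.30 and 5.19 CPM in TBI + VH, at 1.28 ± 0.22 (edgeR adjusted p = 0.00865). Emp1 had 3.01, 1.56, 2.31 and 1.92 CPM in Sham + VH and 4.26, 3.47, 4.65 and 4.41 CPM in TBI + VH, at 0.86 ± 0.18 (adjusted p = 0.0389). In all 5 called genes the groups did not overlap, and in each of them replicate 3 of TBI + VH was the highest. The Emp1 call was kept in 6 of 14 alternatives and the Aspg call in 12 of 14, and without replicate 3 of Sham + VH the count was 3. Fitted to these 8 libraries alone, the count was also 3, Cd44, Osmr and S1pr3.

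The secreted genes did not pass at 29 dpi. Serpina3n had 73.7, 91.9, 66.7 and 83.8 CPM in Sham + VH and 113.2, 88.8, 194.6 and 131 CPM in TBI + VH, at 0.74 ± 0.16 just outside the threshold (edgeR adjusted p = 0.0519). Lcn2 was divided within TBI + VH, at 2.56 and 2.81 CPM in replicates 2 and 4 and 0.395 and 0.215 CPM in replicates 1 and 3, with 0.101 to 0.358 CPM in Sham + VH (2.43 ± 1.08, adjusted p = 0.581). Cd109 (0.39 ± 0.18), Steap4 (0.59 ± 0.54) and Hspb1 (-0.06 ± 0.34) did not pass. Around them, Vim (1.73), Gfap (1.40), Ggta1 (1.20), H2-D1 (0.72), Tgm1 (5.03) and Spp1 (1.83) were higher, while none of the gp130 cytokines, gp130 receptors or Stat3 pathway genes tested was called. Of the markers, 0 of 10 for astrocytes and 2 of 7 for microglia were called.

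In TBI + CD at 29 dpi none of the 10 genes was called against Sham + VH by edgeR, with 0.113% of genes called higher, whereas DESeq2 called Osmr and S1pr3, beside 0.251% of genes. At an unadjusted p under 0.05 there were 4 of the 10, and 1245 of all genes. Osmr had 7.92, 10.6, 8.25 and 9.05 CPM, all above the Sham + VH libraries, at 0.88 ± 0.17 (edgeR adjusted p = 0.0531). S1pr3 had 14.5, 13.2, 12.3 and 12.8 CPM, also without overlap, at 0.66 ± 0.14 (adjusted p = 0.114), and Cd44 had 7.02, 10.6, 7.22 and 9.17 CPM, at 0.69 ± 0.18 (adjusted p = 0.256). The result depended on the control group. Against Sham + CD, edgeR called 4 genes higher in TBI + CD: Osmr at 0.97, Cd44 at 0.99, S1pr3 at 0.69 and Aspg at 1.11 (adjusted p from 0.0137 to 0.0457), beside 0.351% of all genes. Of the related genes, Vim (1.03, edgeR adjusted p = 0.0189) and Ggta1 (0.81, adjusted p = 0.0463) were higher in TBI + CD than in Sham + VH.

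The absence of calls in TBI + CD does not by itself show a difference from TBI + VH, which was tested directly. At 29 dpi 9 of the 10 genes were lower in TBI + CD than in TBI + VH by their estimates, and Hspb1 was higher, with a median log2 difference of -0.40 (all genes -0.00). None was called by edgeR or by DESeq2, 0% of genes were called by edgeR and DESeq2 called 4 genes in all. At an unadjusted p under 0.05 there were 7 of the 10, and 893 of 16832 over all genes. Emp1 had 3.40, 3.39, 2.92 and 2.25 CPM in TBI + CD, all below the TBI + VH libraries, a difference of -0.49 (95% interval -0.86 to -0.13, edgeR adjusted p = 0.882, unadjusted p = 0.0108). S1pr3 differed by -0.38 (-0.67 to -0.10, unadjusted p = 0.0123) and Serpina3n by -0.43 (-0.77 to -0.09, unadjusted p = 0.0154). Serpina3n had 87.8, 97.8, 109.5 and 96.4 CPM in TBI + CD, of which 3 were above 88.8 CPM, the lowest TBI + VH library. The interaction of injury and drug gave 0% called and 2 of the 10 at an unadjusted p under 0.05 (890 of all genes), Lcn2 (-3.18 ± 1.48) and Serpina3n (-0.58 ± 0.23). Lcn2 had 0.158, 0.0343, 2.14 and 0.0408 CPM in Sham + CD, so that replicate 3 set the mean of that group. Sham + CD against Sham + VH at 29 dpi also gave 0% called, and Steap4 (-1.47 ± 0.64, unadjusted p = 0.0345) was the nearest of the 10. Steap4 had 1.81, 0.260, 0.468 and 0.202 CPM in Sham + VH and 0.317, 0.240, 0.480 and 0.122 CPM in Sham + CD. Replicate 1 thus set the Sham + VH mean.

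The injury response fell from 3 to 29 dpi in 4 of the 10 genes, tested as the difference of the log2 fold changes in 1 fit of the 32 hippocampal libraries. The drops were 2.03 ± 0.26 for Serpina3n (edgeR adjusted p = 2.1e-05), 1.84 ± 0.30 for Aspg (0.000357), 1.64 ± 0.44 for Cd44 (0.0315) and 1.31 ± 0.28 for S1pr3 (0.00467). In the same test 3.07% of genes were called in that direction. Osmr, at 0.93 ± 0.31, did not pass (adjusted p = 0.122), nor did Lcn2 at 3.54 ± 1.52, Emp1 at 0.71 ± 0.34, Cd109 at 0.50 ± 0.27, Steap4 or Hspb1. The Cd44 call was kept in 13 of 22 alternatives. Averaged over both drug arms, 7 of the 10 and 7.92% of all genes were called in that direction, with Emp1, Lcn2 and Osmr added.

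In the thalamus at 3 dpi none of the 10 genes was called by edgeR in TBI + VH, where 0.298% of genes were called higher, but Aspg and Serpina3n stood near the threshold. Aspg had 1.73, 1.94, 1.14 and 1.50 CPM in Sham + VH and 4.66, 4.26, 2.26 and 3.02 CPM in TBI + VH. All 4 injured libraries were above the Sham libraries, at 1.16 ± 0.24 (edgeR adjusted p = 0.0501), and DESeq2 (0.454% of genes higher), RLE scaling and an unfiltered table each called it. Serpina3n had 24.7, 17.1, 22.1 and 22.2 CPM in Sham + VH and 93.4, 122.8, 24.4 and 36.7 CPM in TBI + VH, at 1.69 ± 0.40 (edgeR adjusted p = 0.114), and DESeq2 called it (adjusted p = 0.0245). Replicate 3 of TBI + VH overlapped with Sham + VH, and without it both genes were called, Serpina3n at 1.97 (adjusted p = 0.014) and Aspg at 1.33 (adjusted p = 0.0134). Both were also called without replicate 4, and neither was without replicate 1 or 2. At an unadjusted p under 0.05 there were these 2 of the 10, and 643 of all genes. Gfap was higher in the same comparison, at 1.68, as were 5 of 7 microglia markers.

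In TBI + CD the thalamus at 3 dpi gave 0 of the 10 by edgeR and 0.418% of all genes higher. Aspg, at 3.80, 2.98, 3.98 and 2.74 CPM, and Serpina3n, at 67.7, 45.7, 75.5 and 29.2 CPM, did not overlap with Sham + VH. Their log2 fold changes were 1.09 ± 0.24 (edgeR adjusted p = 0.0618) and 1.34 ± 0.40 (adjusted p = 0.255), 3 of the 10 and 1197 of all genes were at an unadjusted p under 0.05, and DESeq2 called Aspg, beside 0.659% of genes. The other thalamic comparisons at 3 dpi, candesartan in either injury group and the interaction, gave 0% called and none of the 10 by edgeR or DESeq2. At an unadjusted p under 0.05 there was 1 of the 10, Lcn2 in TBI + CD against TBI + VH (2.40 ± 0.98), where 344 of all genes were under it.

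**Figure D3:**
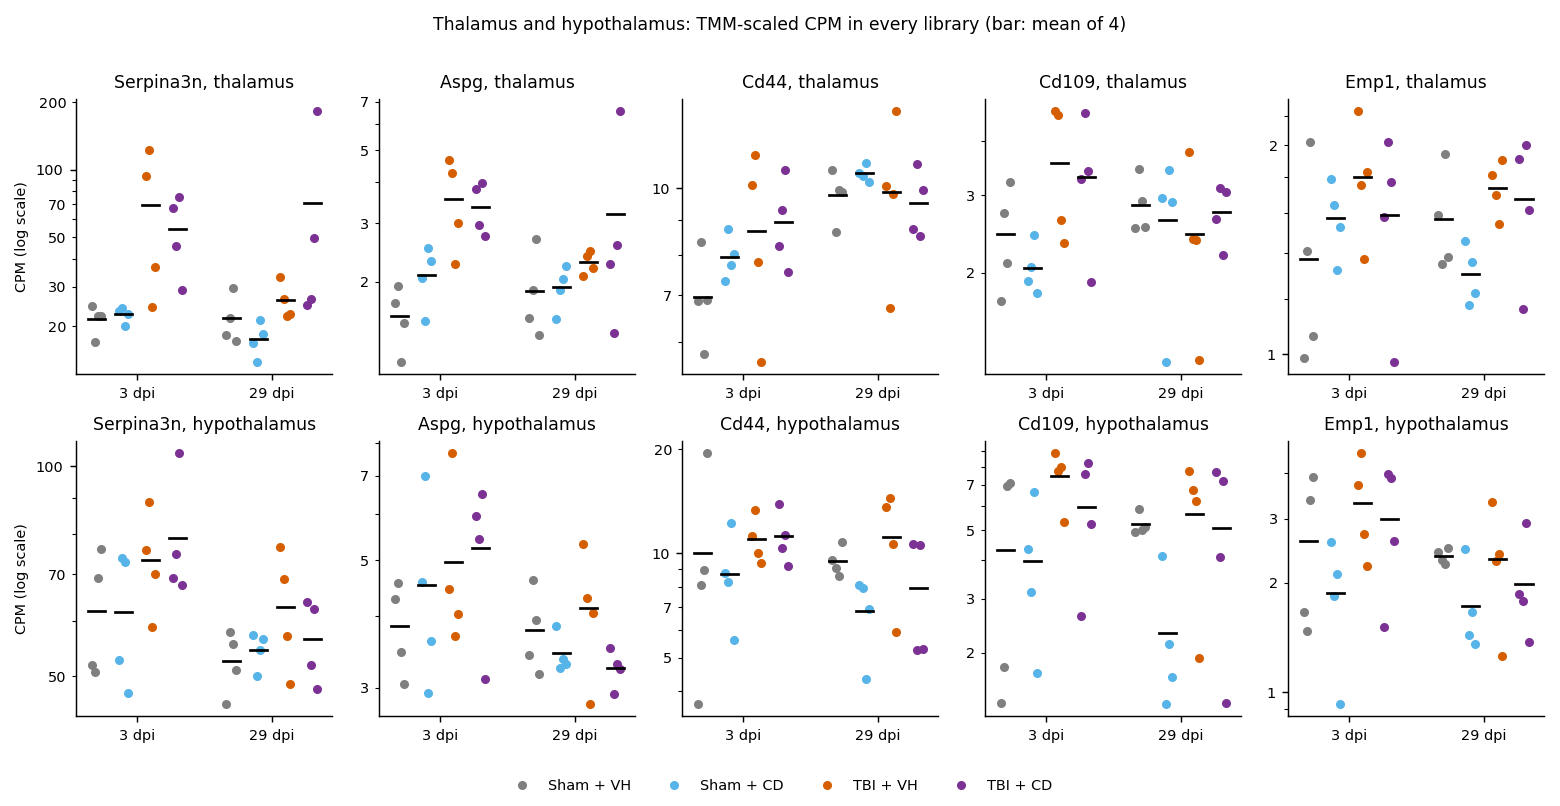
CPM of Serpina3n, Aspg, Cd44, Cd109 and Emp1 in the 32 thalamic (upper row) and 32 hypothalamic (lower row) libraries, on log scales, with points for libraries, bars for the mean of 4 and colours for the arms. At 3 dpi in the thalamus Serpina3n reaches 122.8 CPM in TBI + VH while 1 library stays at 24.4 CPM, and at 29 dpi 1 TBI + CD library stands at 182.3 CPM.

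At 29 dpi in the thalamus Lcn2 did not pass the filter on low counts, and none of the other 9 genes was called in any comparison by edgeR or DESeq2, with 0% of genes called by edgeR. Serpina3n alone was at an unadjusted p under 0.05 in TBI + CD against TBI + VH (380 of all genes) and in the interaction (577), and no gene of the 9 was in TBI + VH or Sham + CD against Sham + VH. In TBI + CD against Sham + VH 3 of the 9 (815 of all genes) were at an unadjusted p under 0.05, Serpina3n, Osmr and Aspg. Serpina3n had 24.9, 26.6, 49.5 and 182.3 CPM in TBI + CD and 18.4, 21.7, 29.6 and 17.1 CPM in Sham + VH, so that replicate 4 set the mean. The log2 fold change was 1.71 ± 0.49 with that library and 0.64 ± 0.24 without it (unadjusted p = 0.00292 and 0.0173). The same library was the highest of its group in Aspg, at 6.55 CPM, and in the sum of the microglia markers, 448 CPM beside 264 to 313 CPM in the other TBI + CD libraries. Its astrocyte sum was 6327 CPM beside 5343, 5481 and 5797 CPM. The blood monocyte and macrophage sum was 16.4 CPM there beside 10.6, 8.46 and 8.25 CPM. Its choroid plexus sum was 1452 CPM beside 31.2, 58.1 and 67.2 CPM. The part of any of these cell types in its Serpina3n level was not tested.

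In the hypothalamus none of the 10 genes was called in any of the 10 comparisons between arms, at 3 or 29 dpi, by edgeR or by DESeq2. The share of genes called was 0% in 9 of them and 0.00583% in TBI + VH at 29 dpi. In TBI + VH against Sham + VH at 3 dpi no gene of the 10 was at an unadjusted p under 0.05 (577 of all genes), and at 29 dpi 1 was, Lcn2, with a lower estimate (-1.63 ± 0.66). Lcn2 had 0.409, 0.118, 0.632 and 1.365 CPM in Sham + VH at 29 dpi, highest in replicate 4. In TBI + VH it had 0.205, 0.187, 0.0541 and 0.384 CPM, and the groups overlapped. The 3 dpi estimates for TBI + VH lay between 0.06 for Lcn2 and 0.79 for Cd109. Cd109 varied within Sham + VH, with 1.38, 1.80, 6.95 and 7.08 CPM in Sham + VH and 8.86, 7.79, 8.01 and 5.31 CPM in TBI + VH at 3 dpi. The summed level of 5 ependyma markers had the same pattern, with 14.9, 14.5, 72.5 and 111.8 CPM in those Sham + VH libraries and 107.5, 104.5, 100.3 and 67.9 CPM in TBI + VH.

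Across the 32 hypothalamic libraries, after subtraction of group means, Cd109 and the ependyma sum had a Pearson r of 0.97, and Emp1, S1pr3, Serpina3n and Cd44 had 0.89, 0.82, 0.67 and 0.65. In the same order these 5 genes had -0.79, -0.83, -0.82, -0.70 and -0.78 with the neuron sum and -0.87, -0.77, -0.75, -0.80 and -0.76 with the oligodendrocyte sum. With the astrocyte sum they had -0.66, -0.60, -0.63, -0.65 and -0.56, and with the microglia sum -0.65, -0.55, -0.70, -0.66 and -0.81. With the ependyma sum, Cd109 had 0.90 in the thalamus and -0.15 in the hippocampus. At 29 dpi in the hypothalamus Cd109 was 4.12, 1.37, 2.14 and 1.67 CPM in Sham + CD and 4.93, 5.85, 4.999 and 5.12 CPM in Sham + VH, without overlap (-1.21 ± 0.48, edgeR adjusted p = 0.356, unadjusted p = 0.0215). The ependyma sums there were 74.6, 15.7, 19.0 and 21.9 CPM against 82.5, 108.6, 72.02 and 76.7 CPM. These correlations are over libraries that differ in depth and in dissected tissue, and they carry no test, and the part of ependyma, the ciliated lining of the ventricles, or of the other cell types in these values was not tested.

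**Figure D4:**
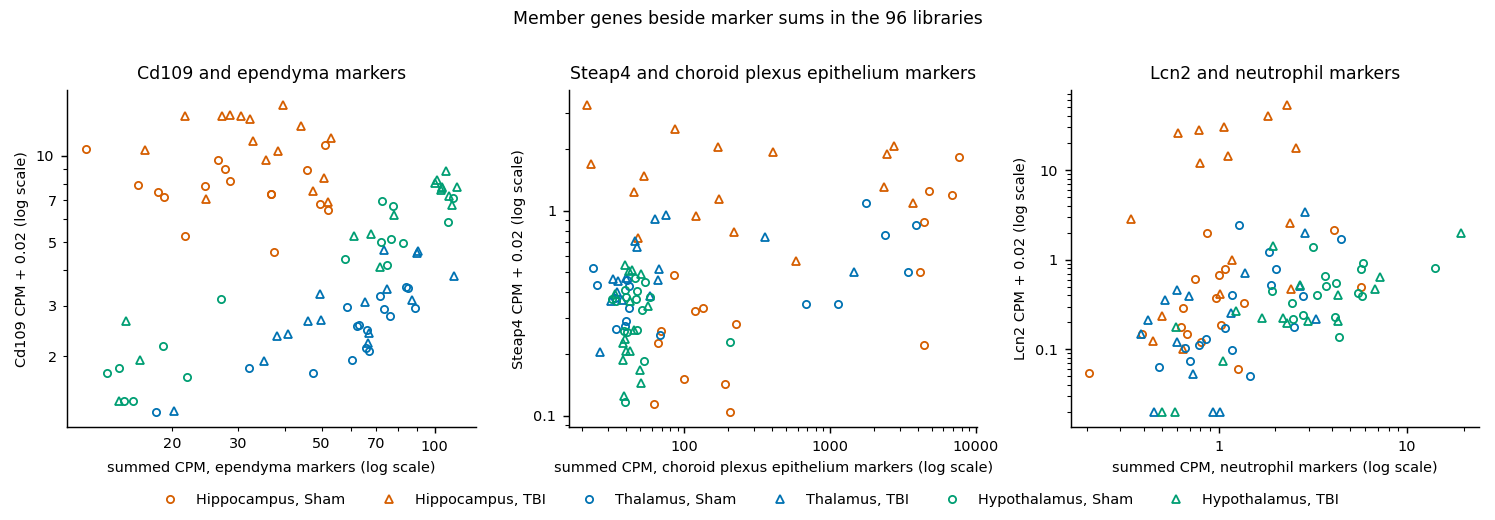
CPM of Cd109, Steap4 and Lcn2 plus 0.02 against the summed CPM of ependyma, choroid plexus epithelium and neutrophil markers, on log scales, 1 point for each of the 96 libraries, coloured by region with circles for Sham and triangles for TBI. Cd109 follows the ependyma sum in the hypothalamus and thalamus but not in the hippocampus, and in the injured hippocampus Lcn2 reaches 12.1 to 52.6 CPM with neutrophil sums no higher than 2.58 CPM at 3 dpi.

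The response of the hippocampus at 3 dpi was tested against the other regions as a difference of log2 fold changes in 1 fit of 48 libraries. Against the thalamus, 5 of the 10 genes responded more in the hippocampus, where 3.51% of genes were called in that direction. The differences were 6.79 ± 1.37 for Lcn2 (edgeR adjusted p = 0.00121), 2.39 ± 0.48 for Cd44 (0.00119), 2.01 ± 0.28 for S1pr3 (7.08e-06), 1.94 ± 0.37 for Aspg (0.000531) and 1.74 ± 0.31 for Osmr (0.00028). Serpina3n, with 1.06 ± 0.41, did not pass (adjusted p = 0.19). With both drug arms averaged, 9 of the 10 and 8.59% of all genes were called higher.

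Against the hypothalamus, 6 of the 10 responded more in the hippocampus, where 4.92% of genes were called in that direction. They were Lcn2 (5.88 ± 1.28), Aspg (2.73 ± 0.35), Cd44 (2.58 ± 0.47), Serpina3n (2.51 ± 0.41), S1pr3 (2.14 ± 0.27) and Osmr (1.95 ± 0.31), with edgeR adjusted p from 3.07e-07 to 0.00177. Each of these region calls was kept in 22 of 22 alternatives. Between thalamus and hypothalamus none of the 10 was called, with 0% of all genes, and Serpina3n had the lowest unadjusted p (log2 difference 1.45 ± 0.42). At an unadjusted p under 0.05 there were 2 of the 10 and 459 of all genes, and DESeq2 called none of the 10.

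At 29 dpi no gene of the 10 was called in any of the 3 region differences. The shares of all genes called were 0.0223% for hippocampus over thalamus, 0.0502% for hippocampus over hypothalamus and 0.00558% between thalamus and hypothalamus. S1pr3 (1.06 ± 0.25 against thalamus and 1.03 ± 0.24 against hypothalamus) and Osmr (1.20 ± 0.27 and 1.16 ± 0.28) had the lowest adjusted p, from 0.128 to 0.162 by edgeR. At an unadjusted p under 0.05 there were 5, 6 and 0 of the 10, and 773, 832 and 352 of all genes. DESeq2 called 2, 1 and 0 of the 10, beside 0.0706% and 0.0834% of genes in the first pair. The change of the response from 3 to 29 dpi gave none of the 10 in the thalamus, with 0.00582% of all genes called higher, or in the hypothalamus, with 0%, by edgeR or DESeq2, and 1 and 0 of the 10 at an unadjusted p under 0.05, with 316 and 400 of all genes.

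**Figure D5:**
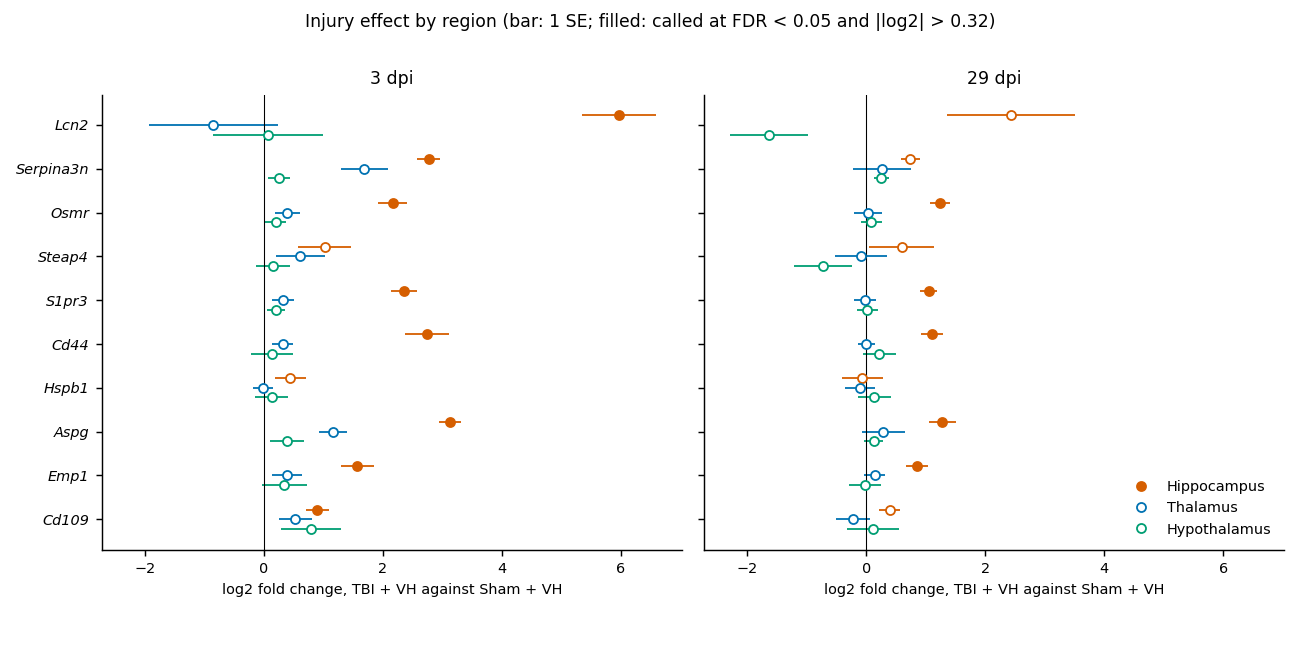
Log2 fold change of each gene in TBI + VH against Sham + VH in the hippocampus, thalamus and hypothalamus at 3 dpi (left) and 29 dpi (right), with bars of 1 SE and filled points for genes called. Filled points appear for the hippocampus alone, 8 at 3 dpi and 5 at 29 dpi, and Lcn2 has the widest bars and no point for the thalamus at 29 dpi, where it was filtered out.

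In uninjured tissue the regions differed in 4 to 7 of the 10 genes, and in a large share of all genes. In Sham + VH at 3 dpi 7 of the 10 differed between hippocampus and thalamus (40.9% of all genes), 5 between hippocampus and hypothalamus (46.7%) and 5 between thalamus and hypothalamus (28.6%). At 29 dpi the counts were 6 (39.3%), 4 (45.0%) and 7 (32.9%). The counts for hippocampus against hypothalamus were near the share over all genes. With a library left out, the counts against the hypothalamus were 3 to 5 (hippocampus) and 3 to 7 (thalamus) at 3 dpi, and 2 to 4 and 4 to 6 at 29 dpi. The lowest counts came without hippocampal replicate 3 or hypothalamic replicate 1 or 2 (3) and without hypothalamic replicate 4 (3) at 3 dpi, and without hippocampal replicate 1 (2) and thalamic replicate 1 or 4 or hypothalamic replicate 4 (4) at 29 dpi. At 29 dpi the calls of Lcn2 and Cd109 between thalamus and hypothalamus were kept in 5 of 12 and 5 of 13 alternatives. Between hippocampus and hypothalamus, the call of S1pr3 at 29 dpi was kept in 4 of 13 and that of Cd109 at 3 dpi in 5 of 13. Serpina3n was ordered hippocampus, hypothalamus, thalamus, with means of 93.2, 62.0 and 21.5 CPM at 3 dpi. Hippocampus and hypothalamus were not called apart in Serpina3n (0.63 ± 0.29, edgeR adjusted p = 0.0528), and both were above the thalamus by 2.14 ± 0.31 and 1.50 ± 0.30 on the log2 scale. Hspb1 had the opposite pattern, with 3.21 CPM in the thalamus and 1.63 and 1.68 CPM in the hippocampus and hypothalamus, and the last pair was not called apart.

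Osmr was higher in the hippocampus (5.17 CPM) than in the hypothalamus (3.39 CPM) and thalamus (3.12 CPM) in Sham + VH at 3 dpi, and at 29 dpi the order began with the hippocampus again. Aspg was highest in the hypothalamus at 3 dpi, at 3.84 CPM beside 2.39 CPM in the hippocampus and 1.58 CPM in the thalamus, and hippocampus and thalamus were not called apart (edgeR adjusted p = 0.0566). Cd44 was lowest in the hippocampus, with 4.43 CPM at 3 dpi and 5.10 CPM at 29 dpi, and the difference from the thalamus was called at 29 dpi (-0.86 ± 0.23, adjusted p = 0.00177) but not at 3 dpi. Cd109 was higher in the hippocampus than in the thalamus at both times (1.61 ± 0.38 and 1.54 ± 0.36). Lcn2 did not exceed 1.37 CPM in any Sham + VH library of the 3 regions.

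Over the 24 group means, the genes most like the mean of the 10, each scaled on log2 CPM, were found among 15868 other genes. Vim came first with a Pearson r of 0.99, followed by Clic1, an intracellular chloride channel protein (0.98), Cyba, a subunit of the NADPH oxidase (0.98), Capg, an actin-capping protein (0.97), and Ms4a6c (0.97). These values describe 24 means, of which the 2 injured hippocampal groups at 3 dpi are far above the others, and the Spearman rho was lower, 0.92 for Vim and 0.79 for Ms4a6c. Among the 10, S1pr3 was most like the mean of the other 9 (r = 0.95) and Hspb1 least (-0.18).

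Within groups the genes varied together less. After subtraction of group means, the 45 pairs had a median r of 0.23 over 96 libraries, with 40 pairs above 0. In the hippocampus S1pr3 and Emp1 (0.74), Osmr and S1pr3 (0.74) and Osmr and Emp1 (0.73) had the highest values, over 32 libraries. In the thalamus Serpina3n and Aspg had 0.79. Of the cell type sums, Hspb1 was most like endothelium over all libraries (0.61) and in the hippocampus (0.79). In the thalamus and hypothalamus its value was higher with fibroblast and mural cell markers, at 0.40 and 0.70, than with endothelium, at 0.36 and 0.56. With the neuron sum in the hippocampus, Emp1, Osmr, Steap4 and S1pr3 had -0.68, -0.64, -0.56 and -0.54, and Cd109 had 0.39. With the microglia sum there, the 10 genes ranged from 0.01 for Hspb1 to 0.67 for Osmr. S1pr3, Emp1 and Cd44 had 0.67, 0.57 and 0.51 with it. With the astrocyte sum, Osmr, S1pr3, Emp1 and Cd44 had 0.30, 0.33, 0.09 and 0.29. Lcn2 had 0.58 with the neutrophil sum over all libraries, and 0.73 in the hypothalamus, 0.57 in the thalamus and 0.45 in the hippocampus. In the hippocampus, where Lcn2 rose, it had 0.49 with blood monocyte and macrophage markers, 0.46 with choroid plexus markers, -0.45 with neuron markers and -0.43 with astrocyte markers. With the astrocyte sum the 10 genes ranged from -0.50 for Steap4 to 0.55 for Serpina3n in the hippocampus, from -0.17 for Cd109 to 0.60 for Serpina3n in the thalamus and from -0.66 for Cd109 to 0.23 for Lcn2 in the hypothalamus.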

How the data were processed

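Bulk poly(A) RNA of 96 libraries was sequenced by the study, and the authors deposited 1 table of raw read counts per gene for each time point. Per the labels and the study's methods, reads were aligned to mm10 with MapSplice and counted with HTSeq 0.9.1, and the study tested with DESeq2 1.16.1. The annotation, the strand setting and the treatment of reads shared by paralogs are not given in the sources used here. Counts were scaled by TMM and tested with the edgeR 4.0.16 quasi-likelihood test in R 4.3.3, 1 fit of 16 libraries per region and time point, 48 libraries for differences between regions and 32 for differences between time points. Low counts were removed with filterByExpr, and p-values were adjusted by Benjamini-Hochberg over all genes tested. DEGs had an adjusted p under 0.05 and a log2 change beyond 0.32 in size. Intervals are 95% and cover the fit's error only. DESeq2 1.42.0, RLE factors, no filter, only the libraries compared, a replicate block, a choroid plexus covariate, Sham + CD as the control, the mean of both drug arms and leaving out each library were tried as alternatives. Scripts were tested on simulated data. In the 144 pairs of libraries of a group, counts differed by more than sampling noise (chi-square per degree of freedom 2.75 to 51.4). The 10 genes, the related lists and the marker lists were chosen with earlier results of these data known. All 10 genes were described in every comparison, and other genes were named from the related lists where called. Promoters were read from RefSeq on GRCm38.p6. No protein sequence was used here.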

Additional observations from a re-analysis of the deposited data

Results flagged for a closer look

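In each group of 4 libraries the highest and lowest values of the 10 genes were compared with the gap to the nearest library, and 14 of 240 gene-by-group sets had 1 library far from the other 3, where chance gives about 1 in 20, or 12.
For Lcn2 these were replicate 3 of Sham + CD in the thalamus at 3 dpi (2.40 CPM) and at 29 dpi (1.68 CPM), replicate 2 of TBI + VH in the hypothalamus at 3 dpi (1.42 CPM) and replicate 3 of Sham + CD in the hippocampus at 29 dpi (2.14 CPM). The last library had a choroid plexus marker sum of 4143 CPM, against 69.6 to 190.3 CPM in the other 3, and a neutrophil sum of 4.09 CPM. In the thalamic Sham + CD replicate 3 the choroid plexus sum was 685.0 CPM at 3 dpi, against 23.5 to 40.3 CPM in the other 3, and 1777 CPM at 29 dpi, against 25.1 to 41.95 CPM.
For Steap4 they were replicate 1 of TBI + VH in the thalamus (0.886 CPM), replicate 3 of Sham + VH (0.447 CPM) and replicate 3 of TBI + CD (0.47 CPM) in the hypothalamus at 3 dpi, and replicate 1 of Sham + VH in the hippocampus (1.81 CPM) and replicate 3 of Sham + CD in the thalamus (1.07 CPM) at 29 dpi. The hippocampal one had a choroid plexus sum of 7655 CPM, with 226.6, 84.8 and 4404 CPM in replicates 2 to 4. The part of choroid plexus tissue in these values was not tested.
Serpina3n stood apart in replicate 4 of TBI + CD in the thalamus at 29 dpi (182.3 CPM), S1pr3 in replicate 4 of Sham + VH in the thalamus at 3 dpi (8.78 CPM) and Aspg in replicate 3 of TBI + VH in the hippocampus at 29 dpi (9.30 CPM). Hspb1 did so in replicate 3 of TBI + VH in the hippocampus at 3 dpi (2.89 CPM) and in replicate 3 of Sham + VH in the thalamus at 29 dpi (5.92 CPM).

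The injury response differed between regions or time points by a test of the difference itself in 15 cases. At 3 dpi the log2 response in the hippocampus exceeded that in the thalamus by 6.79 for Lcn2, 2.39 for Cd44, 2.01 for S1pr3, 1.94 for Aspg and 1.74 for Osmr. It exceeded that in the hypothalamus by 5.88 for Lcn2, 2.73 for Aspg, 2.58 for Cd44, 2.51 for Serpina3n, 2.14 for S1pr3 and 1.95 for Osmr. In the hippocampus the 3 dpi response exceeded the 29 dpi response by 2.03 for Serpina3n, 1.84 for Aspg, 1.64 for Cd44 and 1.31 for S1pr3. Drug route and cohort differed between the time points and cannot be told apart from time.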

How the results depend on the processing

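No called fold change of the 10 genes changed direction under the alternatives run. In the hippocampus at 3 dpi, Sham + CD against Sham + VH and the interaction each gave 1 of the 10 genes (Steap4) by DESeq2 and 0 to 1 with a library left out, 1 without replicate 3 of Sham + VH. In the thalamus at 3 dpi, TBI + VH gave 2 by DESeq2, 1 with RLE factors, 1 without the filter and 0 to 2 with a library left out, 2 without replicate 3 or 4 of TBI + VH, and TBI + CD gave 1 by DESeq2. In the hippocampus at 29 dpi, TBI + VH gave 3 with only the libraries compared and 3 to 6 with a library left out, and TBI + CD gave 2 by DESeq2, 1 without the filter, 4 with Sham + CD as the control and 0 to 1 with a library left out, 1 without replicate 1 of Sham + VH.

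With the mean of both drug arms, the hippocampus exceeded the thalamus in 9 genes at 3 dpi, beside 8.59% of all genes. The change over time was called in 7, beside 7.92%. At 29 dpi the hippocampus exceeded the thalamus in 2 and the hypothalamus in 3 under that setting. Where no share of all genes is given, as for these 29 dpi means, a count shows only how calls depend on processing. The 29 dpi differences from the thalamus and hypothalamus gave 2 and 1 by DESeq2, 1 and 1 with a replicate block, and 0 to 1 and 0 to 2 with a library left out: 1 and 1 without replicate 1 of hippocampal Sham + VH, 1 for the thalamus without its Sham + VH replicate 4, and 2 for the hypothalamus without its TBI + VH replicate 1. In Sham + VH with a library left out, hippocampus against hypothalamus gave 3 to 5 genes at 3 dpi (3 without hippocampal replicate 3 or hypothalamic replicate 1 or 2) and 2 to 4 at 29 dpi (2 without hippocampal replicate 1). Thalamus against hypothalamus gave 3 to 7 at 3 dpi (3 without hypothalamic replicate 4) and 4 to 6 at 29 dpi (4 without thalamic replicate 1 or 4 or hypothalamic replicate 4). The causes were not tested.

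With a replicate block the count in the hippocampus at 3 dpi was 8 in TBI + VH and 8 in TBI + CD, where Steap4 was lost, and at 29 dpi it was 5 in TBI + VH. The numbers were not shown to pair the libraries: all same-numbered correlations were above 0.1 in 0 of 36 pairs of arms, 0 of 24 pairs of regions and 0 of 12 pairs of time points, and 51 of 144, 45 of 96 and 16 of 48 same-numbered pairs were the best match, where 1 in 4 by chance gives 36, 24 and 12, most above it between regions, a hint from the data and not from the design. Low counts limit Lcn2 and Steap4 in uninjured tissue.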
